A study of Mus musculus with 12 samples.

Results

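The genes examined here encode the cAMP-dependent protein kinase, PKA, the G protein subunit that switches its pathway on, and the transcription factors and coactivators on which it acts. The list held 10 genes, fixed by name, of the 55401 in the deposited gene tables: Gnas, the PKA catalytic subunits Prkaca and Prkacb, the PKA regulatory subunits Prkar1a and Prkar2a, the factors Creb1, Crem and Atf1, and the coactivators Crebbp and Ep300. Whole-kidney RNA-Seq was done on male C57BL6 mice aged 8 weeks. There were 6 vehicle-treated mice and 6 mice treated with SK-124 at 40 mg/kg, with 1 library per mouse. Mice of both groups received 15% 2-hydroxypropyl-beta-cyclodextrin, the vehicle. SK-124 is a small molecule inhibitor selective for the salt-inducible kinases SIK2 and SIK3 that acts weakly on SIK1. The interval between injection and collection of these kidneys is not given in the sources used here. The comparison asks how kidney mRNA of this pathway differed after direct inhibition of kinases that lie downstream of PKA.

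When a hormone such as PTH or vasopressin binds a Gs-coupled receptor, the Gs alpha subunit encoded by Gnas stimulates adenylyl cyclase and cAMP rises. PKA is then released from its regulatory subunits, and its catalytic subunits phosphorylate CREB family factors and the salt-inducible kinases. CREB, CREM and ATF1 bind the cAMP response element, whose full consensus is the palindrome TGACGTCA, and recruit the acetyltransferases CBP and p300 together with the CRTC coactivators, which active salt-inducible kinases keep in the cytoplasm. In the kidney this pathway carries the PTH signal in the proximal tubule and the vasopressin signal in the collecting duct.

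The libraries were of nearly equal depth, with 19244227 to 19771802 expected counts per mouse, where an expected count is RSEM's estimate of the reads of a gene. The edgeR quasi-likelihood test was run on 14159 genes, and all 10 genes of the list passed its filter on low counts. The share of counts in the 10 most abundant genes was 39.9% to 43.2% in vehicle-treated mice, 44.4% to 46.8% in SK-124-treated mice 1 to 3 and 38.6% to 40.2% in SK-124-treated mice 4 to 6. The median over all genes of the log2 fold change moved with the choice of scaling and was -0.0050 with TMM scaling, -0.12 with library totals alone and -0.14 on log2(TPM + 0.1). With TMM, 1536 genes were higher and 1917 were lower at an FDR, the Benjamini-Hochberg adjusted p, under 0.05. With library totals alone, 777 were higher and 3058 were lower. Proximal tubule markers were abundant, with a summed level of 2190 to 2636 TPM in vehicle and 1804 to 2251 TPM in SK-124, and 0 of 5 were called. The summed immune cell markers did not overlap, at 5.28 to 8.74 TPM in vehicle and 3.24 to 4.77 TPM in SK-124, and 2 of 4 tested were lower. Adipocyte markers were at most 3.60 TPM in sum and adrenal cortex markers at most 0.62 TPM. The part of these differences in the results on the 10 genes was not tested, and in whole tissue fewer cells of a type and less RNA per cell cannot be told apart.

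The 10 genes differed widely in level. TPM scales each gene to its transcript length and each library to a fixed total, so that genes can be ranked on it. In vehicle-treated mice the Gs alpha gene Gnas was the most abundant, at a median of 433 TPM with a range of 407 to 473. Prkar1a followed at a median of 29.4 TPM and Prkaca at 15.2 TPM, and the ranges of these 3 genes did not overlap. Prkar2a, Prkacb, Atf1 and Ep300 came next, at medians of 10.4, 9.41, 9.31 and 7.93 TPM, and each overlapped its neighbour in this order. Crem, at a median of 4.59 TPM, overlapped Ep300, whose lowest mouse was at 4.58 TPM. Creb1, at 2.59 TPM, lay below Crem in 6 of 6 mice without overlap, and Crebbp, which overlapped Creb1, was the least abundant at 1.67 TPM. In SK-124-treated mice the order was the same for Gnas, Prkar1a, Creb1 and Crebbp, while Crem stood at rank 3 with a median of 16.9 TPM, above Prkaca in 6 of 6 mice although the ranges overlapped.

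**Figure D1:**
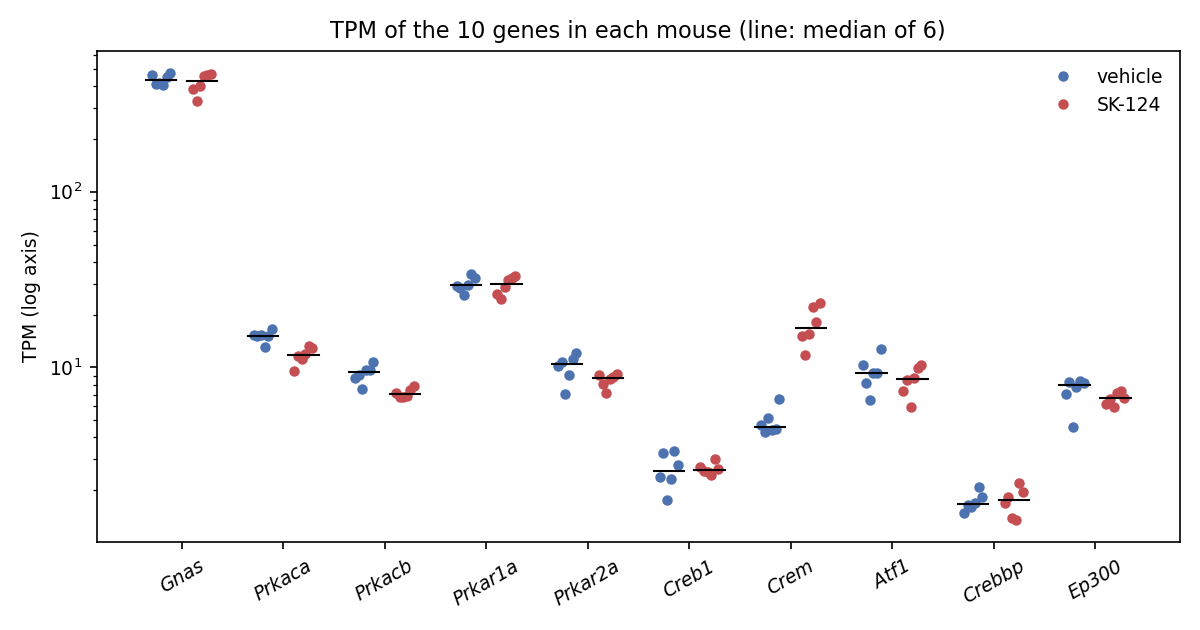
TPM of each of the 10 genes on a log axis in 6 vehicle-treated (blue) and 6 SK-124-treated mice (red); each point is 1 mouse and the black line is the median of the group. Crem was at 4.29 to 6.66 TPM in vehicle and 11.8 to 23.1 TPM in SK-124, and the other 9 genes overlapped between groups on this scale.

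Of the 10 genes, 4 passed an FDR of 0.05 in edgeR, 2 of them higher (Crem and Prkar1a) and 2 lower (Prkaca and Prkacb) with SK-124, while 6 did not. Over all genes tested 24.4% were called, 10.8% higher and 13.5% lower. The median log2 fold change of the 10 genes was 0.025, beside -0.0050 for all genes tested. Groups did not overlap in TMM-normalized read levels (CPM) for 2 of the 10, Crem and Prkar1a, both higher with SK-124, where 6.32% of all genes tested were higher without overlap. Crem kept its call under each alternative that was run. The number of calls fell to 1, Crem, with SK-124-treated mice 1 to 3 alone, and was 2 to 4 when any single mouse was left out, with 2 calls without vehicle-treated mouse 4 or 6 or without treated mouse 4 or 6.

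**Figure D2:**
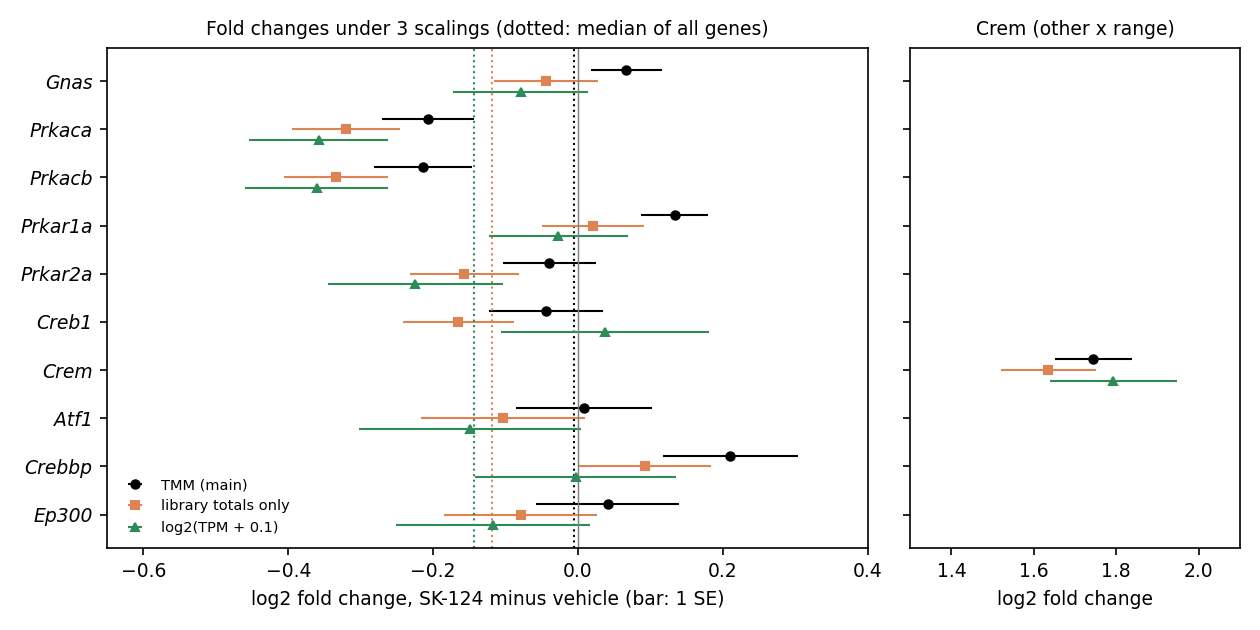
Log2 fold change of each gene, SK-124 minus vehicle, with 1 SE, under TMM scaling (black), library totals (orange) and log2(TPM + 0.1) (green), with Crem in its own panel on another range; dotted lines mark the median of all genes at -0.0050, -0.12 and -0.14. Prkaca and Prkacb lay to the left of the dotted line of each scaling, and Prkar1a changed sign with log2(TPM + 0.1).

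Crem (ENSMUSG00000063889.16) encodes activators and repressors of cAMP-responsive transcription, among them ICER, a short repressor made from an internal cAMP-inducible promoter. Its level in vehicle-treated mice was lowest at 4.51 CPM, with a median of 4.91 and a highest value of 6.26. In SK-124-treated mice the lowest was 15.1 CPM, the median 16.7 and the highest 19.8. Each treated mouse was thus above each vehicle-treated mouse. These values came from 92 to 132 expected counts per vehicle-treated mouse and 259 to 390 per treated mouse. Crem rose 3.35-fold, with a 95% interval of 2.92 to 3.85, a log2 fold change of 1.74 and an SE of 0.0944. The edgeR FDR was 5.50e-10, which placed Crem at rank 34 of the 14159 genes by p. On TPM the mean ± SD was 4.94 ± 0.896 (n = 6) in vehicle and 17.6 ± 4.37 (n = 6) in SK-124, with a two-sided exact permutation p of 0.00216, the smallest that 6 against 6 mice can give. In each vehicle-treated mouse the Crem TPM lay below the interval that RSEM gives for it, as in mouse 1, at 4.71 against 5.62 to 8.94. In each treated mouse it lay within that interval.

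The 6 treated mice were not alike in Crem TPM. SK-124-treated mice 1 to 3 had 15.1, 11.8 and 15.6 TPM, whereas mice 4 to 6 had 22.1, 18.1 and 23.1 TPM. In CPM the ranges of these mice met, at 15.1 to 17.3 for mice 1 to 3 and 15.5 to 19.8 for mice 4 to 6. Against all vehicle-treated mice, both sets passed the test on their own. An antisense gene, Gm6225, overlaps Crem in GENCODE M21, and it had 5 to 13 counts per mouse. Whether the counting used strand is not stated, so its reads cannot be told apart from those of Crem, but they were few beside the 92 counts of the lowest Crem value.

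RSEM also gives each gene a mean transcript length, weighted by the estimated share of each isoform, which moves when the isoform mix moves. For Crem it was lowest at 1116 bases, with a median of 1166 and a highest of 1192, in vehicle-treated mice. With SK-124 the lowest was 971 bases, the median 1003 and the highest 1135. Treated mouse 2 lay within the vehicle range and the other 5 lay below it. The log2 difference was -0.18 with an SE of 0.0371 and an unadjusted limma p of 0.000611, and it did not pass the FDR, at 0.208 over the 12054 genes whose length varied. Genes called on length were 5 of 12054, or 0.0415%, and 44, or 0.365%, had an unadjusted p under 0.001. When any single mouse was left out, 11 of 12 fits of Crem length did not pass, at limma FDRs up to 0.466. The 1 fit that passed left out treated mouse 2, the mouse within the vehicle range, at -0.21 with a limma FDR of 0.0486.

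**Figure D3:**
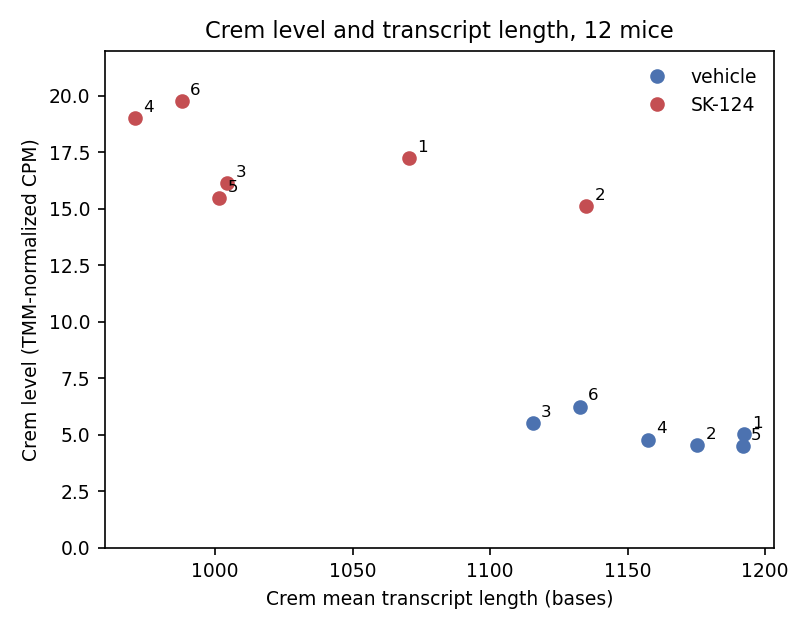
Crem level in TMM-normalized CPM against its mean transcript length in bases for 12 mice, numbered by replicate within vehicle (blue) and SK-124 (red). Treated mice lay above 15 CPM, and treated mouse 2, at 1135 bases, was the treated mouse within the vehicle range of lengths.

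The deposited tables list 39 Crem transcripts, and in GENCODE M21 7 of them start 56.0 to 56.7 kb downstream of the gene's most upstream start, in the region where ICER-type transcripts begin. Those 7 are 436 to 1015 bases long with a median of 953. The other 32 are 290 to 2931 bases long with a median of 1212, and 12 of them are no longer than 1015 bases. The gene tables hold no value per transcript, so which isoforms rose was not analysed here.

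The genes whose level followed Crem most closely over the 12 mice, by Pearson's r of log2(CPM + 0.5), were Cdkn1a, Ddit4, Tmem252, Angptl4 and Osbpl9. Their r was 0.98 to 0.99, and each was higher with SK-124, by log2 fold changes from 0.88 for Osbpl9 to 4.15 for Ddit4. Within groups, after removal of each group's mean, r was 0.23 to 0.42. The points share the difference between the groups, and these correlations describe the 12 libraries only.

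Creb1 and Atf1, the constitutively expressed relatives of Crem, did not pass the test. Creb1 (chr1:64532645-64604548, plus strand, GRCm38), the founding CREB gene, was at 13.8 to 16.7 CPM with a median of 15.3 in vehicle and 12.7 to 17.8 CPM with a median of 14.7 in SK-124. Its change was -3.01%, with a 95% interval of -13.6% to 8.87% and an edgeR FDR of 0.735. Its mean transcript length was 4891 to 6824 bases in vehicle and 4430 to 5185 bases in SK-124, with 3 of 6 treated mice below the vehicle range. The log2 length difference was -0.23 with an SE of 0.0820 and did not pass, at a limma FDR of 0.695. Atf1 (chr15:100227819-100261244, plus strand), which pairs with CREB on the same element, was at 8.07 to 12.2 CPM with a median of 11.6 in vehicle and 9.97 to 12.3 CPM with a median of 10.9 in SK-124. Its change was 0.593%, with an interval of -12.3% to 15.4% and an edgeR FDR of 0.960. Both intervals run from a decrease to an increase, so the direction of change of either gene was not resolved in 6 against 6 mice.

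With Creb1 and Atf1 near their vehicle levels, the make-up of the 3-gene family was different between groups. Crem made up 29.3% ± 4.57 (SD, n = 6) of the summed TPM of Creb1, Crem and Atf1 in vehicle and 60.9% ± 5.53 in SK-124. Atf1 made up 55.0% ± 4.16 in vehicle and 29.6% ± 4.48 in SK-124, and Creb1 made up 15.7% ± 3.54 and 9.52% ± 1.76. The groups did not overlap in any of the 3 shares, which sum to the whole and are given as a description with no test. In vehicle the largest share was that of Atf1 and in SK-124 that of Crem, in 6 of 6 mice each. The vehicle shares rest on Crem TPM values that lay below their RSEM intervals.

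The coactivators Crebbp, which encodes CBP, and Ep300, which encodes p300, acetylate histones at CREB-bound genes. Crebbp (chr16:4081328-4213997, minus strand) was at 17.1 to 20.2 CPM with a median of 18.8 in vehicle and 16.3 to 26.5 CPM with a median of 22.7 in SK-124. Of the 6 treated mice, 4 were above the vehicle range and 1, mouse 4, was below it. The change of 15.7%, with an interval of 0.954% to 32.6%, had an edgeR FDR of 0.116. Without treated mouse 4 the log2 fold change was 0.28 with an FDR of 0.0124, the only fit leaving out 1 mouse in which Crebbp passed. With treated mice 1 to 3 alone, which also leaves out mouse 4, it was 0.28 and did not pass, at an FDR of 0.0603. On log2(TPM + 0.1) the difference was -0.0033, and Crebbp was the gene of the 10 with the widest RSEM interval, at a median width of 93.2% of its TPM. The Crebbp TPM lay below that interval in each mouse but vehicle-treated mouse 5. Ep300 (chr15:81585351-81652077, plus strand) was at 48.6 to 78.9 CPM with a median of 74.7 in vehicle and 65.6 to 83.9 CPM with a median of 72.5 in SK-124. Vehicle-treated mouse 3 was the lowest vehicle-treated mouse in CPM for 6 of the 10 genes, Ep300, Atf1, Creb1, Prkacb, Prkar1a and Prkar2a, and the highest for Prkaca and Crebbp. Without it, 4 of the 10 genes and 3942 of all genes were called, the highest number over all genes among the fits that left out 1 mouse. The change in Ep300 was 2.87%, with an interval of -10.9% to 18.8% and an edgeR FDR of 0.809. Ep300 made up 80.6% ± 3.43 of the summed TPM of Crebbp and Ep300 in vehicle and 79.4% ± 2.67 in SK-124, with overlap.

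Prkaca and Prkacb, which encode the alpha and beta catalytic subunits of PKA, were lower with SK-124. Prkaca (ENSMUSG00000005469.10, chr8:83972993-83996443, plus strand) was lowest at 31.0 CPM, with a median of 34.2 and a highest of 37.3, in vehicle. In SK-124 it was lowest at 26.0 CPM, with a median of 29.4 and a highest of 33.2. Of the 6 treated mice, 5 lay below the lowest vehicle-treated mouse, and treated mouse 2 lay within the vehicle range. Prkaca fell by 13.4%, with a 95% interval of -21.1% to -4.95% and an edgeR FDR of 0.0238. On TPM, 5 of 6 treated mice were again below the vehicle range, at 9.53 to 13.3 against 13.1 to 16.5 TPM, with a two-sided exact permutation p of 0.00433. The mean transcript length of Prkaca was 2276 bases in each mouse, so its TPM did not move with isoform estimates.

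Prkacb (ENSMUSG00000005034.15, chr3:146729574-146812990, minus strand) was lowest at 36.9 CPM, with a median of 41.1 and a highest of 45.9, in vehicle. In SK-124 it was lowest at 32.1 CPM, with a median of 35.6 and a highest of 39.2. The groups overlapped, with 4 of 6 treated mice below the vehicle range. Prkacb fell by 13.8%, with an interval of -21.9% to -4.85% and an edgeR FDR of 0.0277. On TPM it was 7.54 to 10.7 in vehicle and 6.76 to 7.84 in SK-124, with an exact permutation p of 0.00433. In CPM, treated mice 4 to 6 were at 32.1 to 34.9 and mice 1 to 3 at 36.3 to 39.2.

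**Figure D4:**
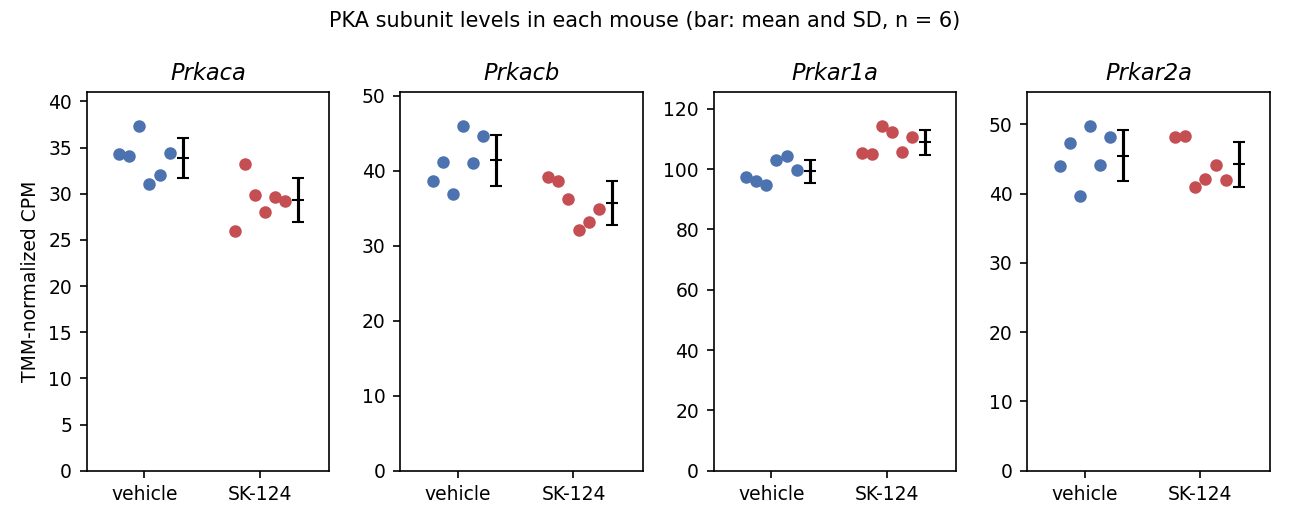
TMM-normalized CPM of 4 PKA subunit genes in each of 6 vehicle-treated (blue) and 6 SK-124-treated mice (red), with the mean and SD beside the points and the axis from 0. Prkar1a was at 94.6 to 104 CPM in vehicle and 105 to 114 in SK-124 without overlap, while the 2 catalytic subunit genes were lower on average with overlap.

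The 2 catalytic subunit genes were lower to a like extent, with log2 fold changes of -0.21 each, and the share of Prkaca in their summed TPM was 62.0% ± 3.23 in vehicle and 62.1% ± 2.61 in SK-124. The calls were near the threshold. Prkaca had an FDR of 0.0566 without treated mouse 1 and 0.0511 without treated mouse 4. Prkacb had an FDR of 0.0774 without vehicle-treated mouse 4, 0.0668 without vehicle-treated mouse 6, and 0.0652, 0.0632 and 0.0571 without treated mice 4, 5 and 6 in turn. With treated mice 1 to 3 alone the log2 fold changes were -0.19 for Prkaca and -0.12 for Prkacb, and both lost the call. Under library totals, log2(TPM + 0.1) and log2(TPM + 1), both were lower and both passed. The median of all genes was itself below 0 on these scalings, at -0.12, -0.14 and -0.11, so these passes include that shift. Relative to that median the log2 fold changes of both genes were -0.20 to -0.23, which was not tested.

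The genes whose level followed Prkacb most closely over the 12 mice were Pacs1, Evi5l, Dock11, Rspry1 and Ablim3, with Pearson's r of 0.90 to 0.91. Within groups r was 0.80 to 0.93 for these 5 genes. They were picked by their r over the same 12 mice, so that a high r is partly built in. Here too the correlations describe the 12 libraries only. Of them Evi5l, at a log2 fold change of -0.40, and Ablim3, at -0.34, passed the edgeR FDR, at 0.000197 and 0.0290. Ablim3 lost the call in 8 of 12 fits that left out 1 mouse, with an FDR up to 0.0745.

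Prkar1a and Prkar2a encode the regulatory subunits RI alpha and RII alpha, which hold the catalytic subunits inactive until cAMP binds. Prkar1a (ENSMUSG00000020612.16, chr11:109649405-109669656, plus strand) was lowest at 94.6 CPM, with a median of 98.5 and a highest of 104.2, in vehicle. In SK-124 it was lowest at 104.9 CPM, with a median of 108 and a highest of 114. The groups did not overlap. Prkar1a rose by 9.70%, with an interval of 2.55% to 17.4% and an edgeR FDR of 0.0431. This call rested on the scaling, since the log2 fold change was 0.021 with library totals and -0.027 on log2(TPM + 0.1), with FDRs of 0.865 and 0.875. Relative to the median of all genes those differences were 0.14 and 0.12. The call was also lost in 7 of 12 fits that left out 1 mouse (vehicle-treated mice 1, 2, 4 and 6 and treated mice 3, 4 and 6), where the log2 fold change was 0.12 to 0.15 and the FDR reached 0.0979.

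Prkar2a (chr9:108689314-108750436, plus strand) was at 39.6 to 49.7 CPM with a median of 45.7 in vehicle and 40.9 to 48.3 CPM with a median of 43.1 in SK-124. Its change was -2.69%, with an interval of -11.5% to 6.96% and an edgeR FDR of 0.710. The summed TPM of Prkaca and Prkacb was 61.3% ± 4.66 (SD, n = 6) of that of Prkar1a and Prkar2a in vehicle and 50.1% ± 3.35 in SK-124. The lowest vehicle-treated mouse was at 55.3% and the highest treated mouse at 56.3%, so that the groups overlapped in this ratio. The share of Prkar1a in the summed regulatory TPM was 75.0% ± 2.25 in vehicle and 77.5% ± 2.19 in SK-124.

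The promoters of the 3 called PKA subunit genes are shown because these genes encode 2 arms of the kinase and moved in opposite directions under TMM. RefSeq promoter windows of GRCm38.p6 were at hand for 9 of the 10 genes, 20 windows in all since a gene can have several starts. The gene without a window was Crem, whose promoters were therefore not searched. Each was searched over the 250 bases before the start, on both strands, for TGACGTCA and for its 5-base core TGACG, which TGACGTCA contains on either strand. Of all 32851 windows, 1.55% held TGACGTCA and 17.8% held TGACG. Of the 20 windows 9 held TGACG, in Atf1, Prkaca, Prkacb, Prkar1a and Gnas, and 1 held TGACGTCA, in Prkar1a. Windows of a gene can overlap, and in Gnas and in Prkar1a the same site was counted in more than 1 window. The windows are thus not independent, and their count cannot be read as an excess over all windows. Of the windows of Prkaca (2 in all) and Prkacb (3 in all), those not shown held no core. Capitals mark the matches, and CGTCA is the core read on the other strand. Bases that GENCODE M21 places in an exon were left off the Prkacb window, and for Prkar1a, whose starts lie close together, 30 bases around the palindrome are shown.
Prkaca (chr8:83972728-83972977, plus strand): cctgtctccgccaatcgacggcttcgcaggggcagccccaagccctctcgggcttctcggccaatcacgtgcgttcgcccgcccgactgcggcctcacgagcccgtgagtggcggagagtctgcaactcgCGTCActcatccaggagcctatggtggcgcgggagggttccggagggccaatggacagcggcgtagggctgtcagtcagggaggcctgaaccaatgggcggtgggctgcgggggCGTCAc
Prkacb (chr3:146812991-146813196, minus strand): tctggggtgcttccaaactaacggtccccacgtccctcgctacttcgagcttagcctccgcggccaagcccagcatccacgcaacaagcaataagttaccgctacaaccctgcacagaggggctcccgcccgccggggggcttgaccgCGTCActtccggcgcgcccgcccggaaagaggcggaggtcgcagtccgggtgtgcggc
Prkar1a (chr11:109650889-109650918, plus strand): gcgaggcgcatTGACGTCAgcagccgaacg

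In Prkaca the 2 cores began 120 and 6 bases before the start, and in Prkacb the core began 102 bases before it. In Prkar1a, which has 6 windows, the palindrome lay inside its window and began 49 bases before the transcript start to which that window belongs. The stretch shown, from 109650889, lies within the span of the gene, which begins at 109649405 in GENCODE M21. A match describes letters in a window, and no binding was measured in these libraries.

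Gnas (ENSMUSG00000027523.20), which encodes the Gs alpha subunit and lies in an imprinted locus, did not pass the test. It was at 485 to 529 CPM with a median of 508 in vehicle and 483 to 550 CPM with a median of 541 in SK-124. Of the 6 treated mice 5 were above the vehicle range and treated mouse 2 was below it. The change was 4.72%, with an interval of -2.55% to 12.5% and an edgeR FDR of 0.367. On TPM the direction was turned, at 437 ± 28.7 (n = 6) in vehicle and 416 ± 54.8 (n = 6) in SK-124, with an exact permutation p of 0.420. Relative to the median of all genes, the log2 fold change of Gnas was 0.072 with TMM and 0.064 on log2(TPM + 0.1). In SK-124-treated mice 1 to 3 Gnas was at 327 to 400 TPM and in mice 4 to 6 at 454 to 465 TPM. The overlapping genes Nespas and Gm20721, on the other strand, had 0 to 1 counts per mouse. The version of the Gnas identifier differs from that of GENCODE M21, so no coordinates are given.

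The rest of the pathway was read from 7 lists fixed by name and chosen with earlier results of these data known. In sum 35 of 72 genes tested were called, beside 24.4% of all genes (10.8% higher and 13.5% lower). The share called was 82.4% of 17 in the textbook CREB target list. It was lower in each other list, down to 16.7% of 6 for the further coactivators. The sum is therefore a description of these lists, and an excess over all genes was not tested. Of 9 Gs-coupled receptors tested, 4 were lower, 0 were higher and 5 were not called, with a list median of -0.36 beside -0.0050 for all genes. Avpr2, the vasopressin V2 receptor of the collecting duct, was at 7.16 to 10.1 CPM in vehicle and 3.21 to 4.31 CPM in SK-124 without overlap. Its log2 fold change was -1.17 with an SE of 0.110 and an edgeR FDR of 4.96e-07. Adora2b, an adenosine receptor, was at 1.01 to 1.63 CPM in vehicle and 0.292 to 0.927 CPM in SK-124, a log2 fold change of -1.10. The glucagon receptor Gcgr, at -0.36, did not overlap between groups either, and the beta-1 adrenergic receptor Adrb1 was at -0.61 with overlap. Adrb1 lost its call with treated mice 1 to 3 alone and with mice 4 to 6 alone, at FDRs up to 0.115. Adora2b was at -0.40 on log2(TPM + 1), a scale that understates the change of low genes. Beside Avpr2, the principal cell marker Aqp2 was higher, and the summed principal cell markers were 95.01 to 164 TPM in vehicle and 83.7 to 211 TPM in SK-124. Their part in the Avpr2 result was not tested.

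Of 12 adenylyl cyclase and G protein genes tested, 3 were higher, 3 were lower and 6 were not called, with a list median of 0.018, beside 10.8% higher and 13.5% lower over all genes. The number called fell from 6 to 3 without vehicle-treated mouse 4 or 5 or without treated mouse 3 or 6. The cyclases Adcy3, Adcy5 and Adcy9 were lower, with log2 fold changes of -0.80, -0.56 and -0.39. Adcy3 was at 0.889 to 2.13 CPM in vehicle and 0.584 to 1.01 CPM in SK-124, so it rested on few counts. Adcy3 lost its call in 4 of 22 alternatives, on log2(TPM + 1), where it was at -0.16, on log2(TPM + 0.1), and with treated mice 1 to 3 or 4 to 6 alone, at FDRs up to 0.136. The higher genes were Gnal, a Gs-type alpha subunit, at 0.56, Gnai1, an inhibitory alpha subunit, at 0.34, and Ric8b, a chaperone of Gs alpha, at 0.33, the latter 2 named after their values were seen. Gnal, at an edgeR FDR of 0.0496, lost its call in 9 of 12 fits that left out 1 mouse, as Adcy9 did, and Adcy5 lost it in 7. Gnai1 and Ric8b were not called on log2(TPM + 0.1) or with library totals. Of 6 further PKA subunit and inhibitor genes, the PKA inhibitor gene Pkib was higher at 0.68, the inhibitor gene Pkia was lower at -0.27 and 4 were not called. Pkib had 0.592 to 0.892 CPM in vehicle and 0.862 to 1.65 CPM in SK-124, and it had an FDR of 0.0578 without treated mouse 5. Both inhibitor genes missed the threshold on log2(TPM + 0.1).

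Of 13 A-kinase anchoring protein genes tested, which tether PKA to sites in the cell, 2 were higher, 2 were lower and 9 were not called, with a list median of 0.016. The share called, 30.8%, was near the 24.4% of all genes. Akap12, which gathers PKA at the plasma membrane, rose from 7.87 to 14.2 CPM in vehicle to 25.6 to 36.6 CPM in SK-124 without overlap. Its log2 fold change was 1.49 with an SE of 0.121 and an edgeR FDR of 9.18e-08. Akap13 rose by 0.50 on the log2 scale without overlap, but missed the threshold on log2(TPM + 0.1). Akap2 was lower at -0.37 and Rab32 at -0.29, and Rab32 lost its call in 8 of 12 fits that left out 1 mouse.

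Of 9 other bZIP factors and their regulators tested, 1 was higher, 3 were lower and 5 were not called, with a list median of 0.11. Over all genes 10.8% were higher and 13.5% lower. Crebrf, a regulator of CREB3 proteins, was at 33.4 to 36.3 CPM in vehicle and 46.6 to 57.7 CPM in SK-124, a log2 fold change of 0.57 without overlap. The membrane-bound factors Creb3l1 and Creb3l2 were lower at -0.62 and -0.40, and Crebzf was lower at -0.19 with the call lost in 6 of 12 fits that left out 1 mouse. Of 6 further coactivators the acetyltransferase Kat2a was lower at -0.21 without overlap and 5 were not called. Kat2a lost its call with treated mice 1 to 3 alone and with mice 4 to 6 alone, at FDRs up to 0.0975. Those 5 included the CRTC genes, at log2 fold changes of -0.043 for Crtc1, -0.016 for Crtc2 and -0.027 for Crtc3, with edgeR FDRs of 0.745, 0.884 and 0.868.

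Most of the textbook CREB target genes were higher with SK-124. Of 17 tested, 13 were higher, 1 was lower and 3 were not called, with a list median of 1.48. Over all genes 10.8% were higher and 13.5% lower, with a median of -0.0050. The 3 not called were Fos, Fosb and Egr1, at log2 fold changes of 0.13, 1.48 and -0.65. Their SEs were 0.785, 0.689 and 0.803, and their edgeR FDRs were 0.925, 0.134 and 0.610. This list was put together with earlier results of these libraries known and is not independent evidence of direction. The orphan nuclear receptors Nr4a3, Nr4a2 and Nr4a1 had log2 fold changes of 5.20, 3.60 and 2.80, with SEs of 0.324, 0.441 and 0.519. Nr4a3 was at 0 to 0.284 CPM in vehicle and 3.61 to 8.86 CPM in SK-124, and Nr4a1 was the gene of these 3 that overlapped, at 2.76 to 22.9 against 18.3 to 92.8 CPM. Each of the 3 kept its call in each alternative run, but the sizes moved. Nr4a1 reached 3.69 on the log2 scale when vehicle-treated mouse 5 was left out. On log2(TPM + 0.1) and log2(TPM + 1), where low genes change less, Nr4a3 was at 3.43 and 1.28 and Nr4a2 at 2.65 and 1.20. The clock gene Per1 rose by 2.42 on the log2 scale, from 10.7 to 27.2 CPM in vehicle to 73.9 to 109 CPM in SK-124. Bdnf, a neurotrophin gene, was the called gene that was lower, at -0.76. The log2 fold change of Crem, 1.74, lay within the range of these targets, -0.76 to 5.20, which is too wide for a likeness to be read from it.

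**Figure D5:**
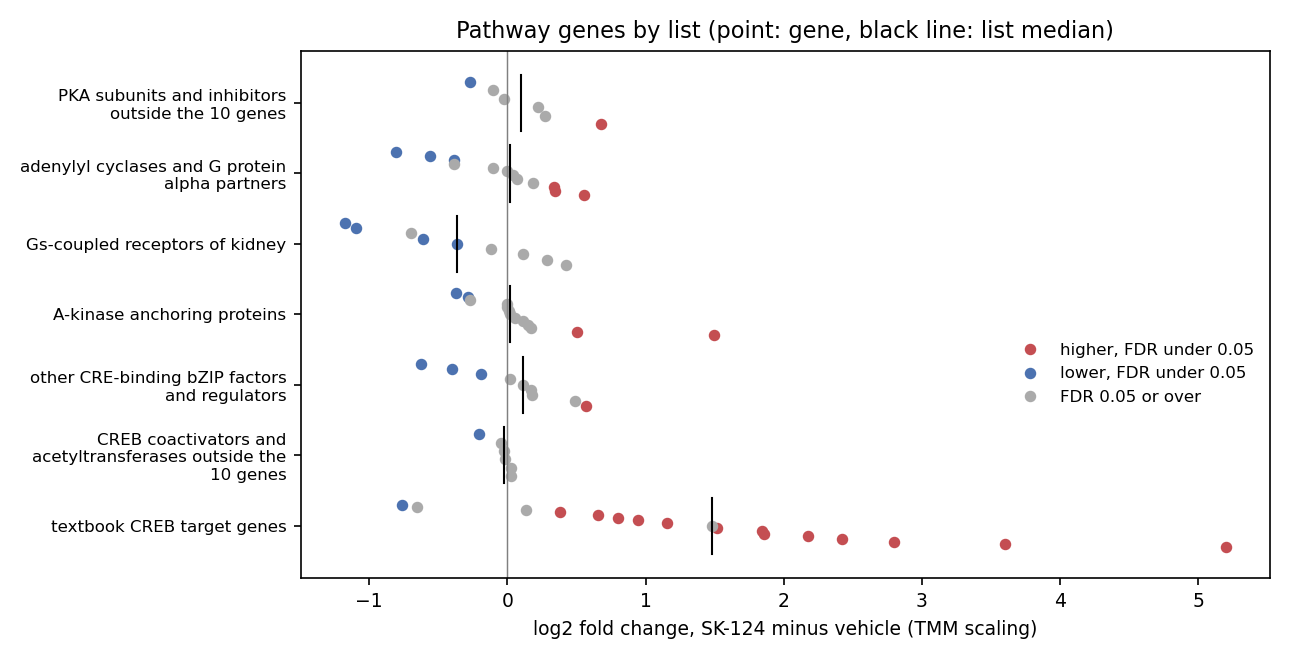
Log2 fold change of each tested gene of 7 pathway lists, SK-124 minus vehicle under TMM scaling; points are genes, coloured by call at an FDR under 0.05, and black lines are list medians. The medians lay between -0.36 and 0.11 for 6 lists and at 1.48 for the textbook CREB target genes.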

How the data were processed

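Whole-kidney RNA-Seq libraries of 12 mice were sequenced on a BGISEQ500 instrument. Per the labels, the authors' processing notes name FastQC, STAR 2.7.2b, RSEM 1.3.0, DESeq2 and the build mm10; the annotation release and the use of strand are not given in the sources used here. In the RSEM gene tables, 1 per mouse, the authors gave expected counts (estimated reads, not normalized), TPM and FPKM (both scaled to effective length and library total) and mean transcript lengths. The paper's methods name no test for these counts.

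Of 55401 gene identifiers, 55141 matched GENCODE M21, 54349 with the same version. Expected counts were rounded, scaled with TMM, filtered with filterByExpr and tested with edgeR 4.0.16 (quasi-likelihood, treatment only, R 4.3.3), with Benjamini-Hochberg adjustment over 14159 genes. TPM was tested by exact permutation on log2(TPM + 0.1), and log2 length with limma 3.58.1. Scripts were tested on simulated data. Intervals are 95% and come from the spread between mice. The low-count filter and the fold changes of low genes limit what depth can show, at 19244227 to 19771802 counts per mouse.

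The 10 genes, the lists and the alternatives were chosen with earlier results of these data known. Named were the 10 genes, up to 4 called genes of each list by size of change, Crtc1 to Crtc3, and the 5 genes most like Crem and like Prkacb. Alternatives were DESeq2 1.42.0, RLE, library totals, 2 filters, limma on log2(TPM + 0.1) and log2(TPM + 1), the replicate number as a block, each mouse left out, and SK-124-treated mice 1 to 3 or 4 to 6 alone. Counts of 30 pairs of mice of the same group differed by more than sampling noise, with a chi-square of at least 4.72 per degree of freedom. Promoter sequences are RefSeq's, GRCm38.p6.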

Additional observations from a re-analysis of the deposited data

Results flagged for a closer look

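For each of the 10 genes, CPM and mean transcript length were screened in each group of 6 mice for a value whose gap to its neighbour passed Dixon's limit at 95%, 38 groups in all, where chance alone would mark about 1.9. There were 5 such values. Ep300 in vehicle-treated mouse 3 stood at 48.6 CPM, below the next vehicle-treated mouse at 68.5 CPM. Gnas in SK-124-treated mouse 2 stood at 483 CPM, below the next treated mouse at 529 CPM, while its total count was within the range of the others. The other 3 were lengths. Crebbp in SK-124-treated mouse 5 was at 10216 bases with the next mouse at 10559 bases. Prkacb in SK-124-treated mouse 6 was at 4294 bases with the next at 4339 bases. Prkar1a in SK-124-treated mouse 4 was at 3378 bases with the next at 3297 bases. With that vehicle-treated mouse left out, Ep300 had a log2 fold change of -0.046, with an edgeR FDR of 0.630. None of these 5 values belongs to Crem or Prkaca.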

How the results depend on the processing

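Crem was called higher in 22 of 22 alternatives, at log2 fold changes of 1.63 to 1.83 (1.70 to 1.81 with each mouse left out). Prkaca and Prkacb were lower in 22 of 22 each, but with treated mice 1 to 3 alone they were at -0.19 and -0.12 (FDRs of 0.176 and 0.362). Prkar1a lost the call with library totals (0.021), no filter on low counts (0.13), treated mice 1 to 3 alone (0.13) and treated mice 4 to 6 alone (0.15), and turned to -0.026 on log2(TPM + 1) and -0.027 on log2(TPM + 0.1). The number of the 10 genes called was 1 with treated mice 1 to 3 alone, when 2298 of all genes and 23 pathway genes were called. With each mouse left out, 2 to 4 of the 10 genes, 2960 to 3942 of all genes and 30 to 36 pathway genes were called, Prkaca ranged from -0.25 to -0.18, Prkacb from -0.25 to -0.18, Prkar1a from 0.12 to 0.15 and the Crem length difference from -0.21 to -0.16.

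The replicate numbers belong to different mice, and deviations of same-numbered mice correlated at -0.131 to 0.217, above 0.1 for 2 of 6 numbers. With the number as a block, Prkacb (-0.21, FDR 0.0517) and Prkar1a (0.13, FDR 0.0627) lost the call, which left 2 of the 10 genes and 3466 of all genes called.

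Among genes that were not called, Creb1 turned to 0.023 and 0.038 on log2(TPM + 1) and log2(TPM + 0.1) and to 0.098 with treated mice 1 to 3 alone. Atf1 turned to -0.10 with library totals, -0.14 and -0.15 on the TPM scales and -0.056 with treated mice 1 to 3 alone, and ranged from -0.064 to 0.043 with each mouse left out. Ep300 turned to -0.079, -0.11 and -0.12 on the same 3 scalings and -0.0016 with treated mice 4 to 6 alone, and ranged from -0.046 to 0.075 with each mouse left out. Gnas turned to -0.044, -0.0790 and -0.0792 on those scalings, Crebbp to -0.0033 on log2(TPM + 0.1) and Prkar2a to 0.012 with treated mice 1 to 3 alone. Crtc1 and Crtc2 turned to 0.018 and 0.054 with treated mice 1 to 3 alone and Crtc3 to 0.035 with treated mice 4 to 6 alone. With each mouse left out, Crtc2 ranged from -0.047 to 0.013 and Crtc3 from -0.086 to 0.030. Lengths ranged from -0.027 to 0.069 for Atf1, -0.0018 to 0.0017 for Prkacb, -0.00071 to 0.011 for Prkar1a and -0.011 to 0.00078 for Gnas. The difference in mean log2 level of Crebbp turned to 0.00038 on log2(TPM + 1) and 0.036 on log2(FPKM + 0.1), and that of Prkar1a to 0.012 on log2(FPKM + 0.1). The cause of these changes between alternatives was not tested.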
